A study of Mus musculus with 12 samples.

Results

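The comparison set the 6 arrays of CD4+ T cell RNA taken from the central nervous system (CNS) of mice with experimental autoimmune encephalomyelitis (EAE) against the 6 arrays of cells that had not been in the CNS. The 4 groups of 3 arrays were averaged first, so that each CNS group and each other group had equal weight. A gene was counted as lying beyond both other groups when the difference was called (adjusted p under 0.05, limma) and all 6 CNS arrays lay on one side of all 6 others. Of 18631 genes tested, 1329 lay above and 1521 lay below. The genes above included most of the listed genes of macrophages, microglia, complement, chemokines, lysosomes and iron handling. The largest bound was that of C1qc, at least 2169-fold higher, and the gaps of most genes below were under 1 on the log2 scale.

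EAE is an autoimmune inflammation of the brain and spinal cord, in which T cells that recognise myelin enter the tissue, are restimulated there by antigen-presenting cells and recruit monocytes, neutrophils and other cells. Macrophages and microglia, the resident macrophages of the CNS, take up myelin debris, present antigen on MHC class II, make complement and chemokines and handle the lipid and iron they ingest. T cells that meet their antigen switch on immediate early transcription factors within minutes and cytokine genes afterwards.

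The naive group was splenic CD4+ T cells of B6.2d2 mice, which carry a transgenic T cell receptor for myelin oligodendrocyte glycoprotein (MOG). The culture group held Th17 cells, a helper subset that makes interleukin 17, differentiated in vitro from such naive cells. In the transferred group, cultured B6.2d2 Th17 cells had been injected into Rag1-/- mice and were recovered from the CNS at peak disease; such hosts lack mature lymphocytes of the T and B lineages. In the immunised group, C57BL/6 mice had received the MOG35-55 peptide, and their CD4+ T cells were taken from the CNS, again at peak disease. The naive, culture and transferred cells thus share the transgenic receptor, and the immunised mice have their own T cell repertoire. All RNA was hybridised in 1 colour, and the 3 arrays of a group came from separate experiments. The labels give neither the purity nor the sorting of the cells, and ages and sexes are not given in the labels used here.

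Levels below are log2 processed signals minus the 75th percentile of the non-control probes of the same array, so that 0 is a level that most probes lie below. Between 57.1% and 64.9% of probes per array were well above background, 0 spots were saturated, and the dimmest signal well above background lay between -6.05 and -5.26. Arrays of 1 group correlated at 0.954 to 0.991 across probes. The number of arrays limits the precision. Among the T cell core genes, Cd3e ranged from 4.43 to 5.91 and Cd4 from 3.94 to 5.02 over all 12 arrays, well above background on each.

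Before the condition on single arrays, 3405 genes (18.3%) were called higher and 5494 (29.5%) lower in the CNS. Requiring that all CNS arrays lie beyond all others kept 1329 genes (7.13%) above and 1521 (8.16%) below. The counts of listed genes below are to be read against these shares. The sides differed in size: the gap between the nearest group means had a median of 2.17 among the genes above and -0.65 among those below, and it reached 3 in 463 genes above and 8 genes below. Asked of group means alone, 2617 genes (14.0%) lay above and 4232 (22.7%) below. When each of the 4 pairs of a CNS and another group had to be called by itself, 1135 genes (6.09%) were higher and 823 (4.42%) lower. Of the genes above, 186 were not well above background on any array of either non-CNS group, and 719 were well above background on all 12 arrays. Those 186 were tested only because all 3 arrays of a CNS group had them well above background, so the filter largely set their direction. The reverse holds for 64 genes below that were not well above background on any CNS array. The balance between the sides depended on the reference level: the T cell core genes themselves were lower in the CNS, and when each array was instead scaled to them, the median of all genes moved from -0.18 to 0.36, and 1575 genes lay above and 185 below. On that scale 81.7% of all called genes were higher, against 38.3% here.

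**Figure D1:**
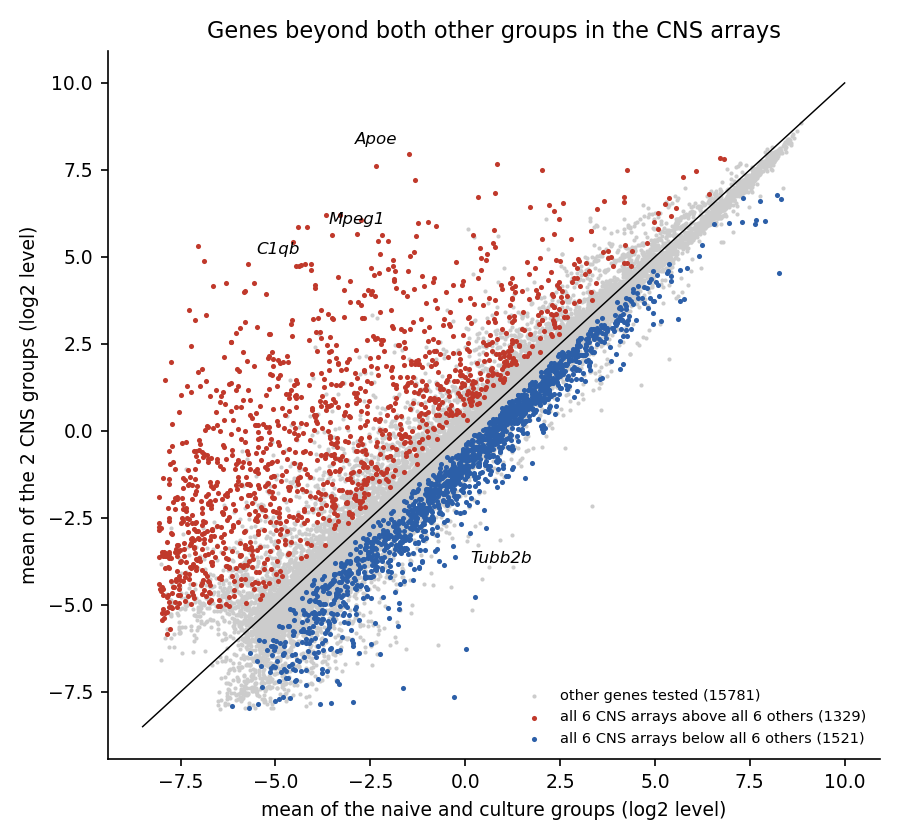
Mean log2 level of the 2 CNS groups (vertical axis) against that of the naive and culture groups (horizontal axis), 1 point per gene, with equality drawn as a line. The 1329 genes whose 6 CNS arrays lie above all 6 others (red) spread far from the line, with Apoe, Mpeg1 and C1qb among them, and the 1521 below (blue, with Tubb2b) stay near it.

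At the edge of the rule, the lowest CNS array of Eif3j1 was at 1.1969 and its highest other array at 1.1965, which placed it just inside. Slc36a4, with -1.9537 and -1.9535, was just outside. On the lower side Uck1 was just inside, with its highest CNS array at 3.248 and its lowest other array at 3.249, and Rbm15 was just outside, at 0.3094 and 0.3090.

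C1qb encodes a chain of C1q, the first component of the classical complement pathway, and its probe lies at chr4:136436578-136436637 in mm9. The C1qb level was -3.90, -4.47 and -3.91 on the naive arrays, -4.02, -4.25 and -3.88 on the culture arrays, 4.76, 5.22 and 4.26 on the transferred arrays and 4.66, 4.03 and 5.78 on the immunised arrays. Every CNS array was far above every other array, and the naive and culture arrays covered the same narrow range. The difference was 8.86 (SE 0.28, adjusted p = 2.38e-08, limma), or 464-fold. Apoe, the apolipoprotein with which macrophages and astrocytes export lipid, was probed at chr7:20281732-20281791. Its levels were -1.03, -1.03 and -0.41 in naive cells, -2.31, -2.47 and -1.62 in culture, 8.0, 8.39 and 8.03 in transferred cells and 7.83, 7.22 and 8.20 in immunised mice. The groups again did not overlap, and Apoe was 686-fold higher in the CNS (9.42, SE 0.22, adjusted p = 6.86e-09, limma).

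Mpeg1 encodes perforin-2, a pore-forming protein of macrophages (probe at chr19:12539387-12539446). On the naive arrays it was at -3.18, -1.89 and -3.33, on the culture arrays at -1.30, 0.15 and -3.52, on the transferred arrays at 5.27, 5.92 and 5.33 and on the immunised arrays at 5.93, 4.98 and 6.38. The culture arrays varied most, with replicate 2 highest, and still lay below every CNS array. Mpeg1 was 225-fold higher in the CNS (7.82, SE 0.55, adjusted p = 2.41e-06, limma). In bulk RNA, fewer cells of a type and less RNA per cell cannot be told apart.

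**Figure D2:**
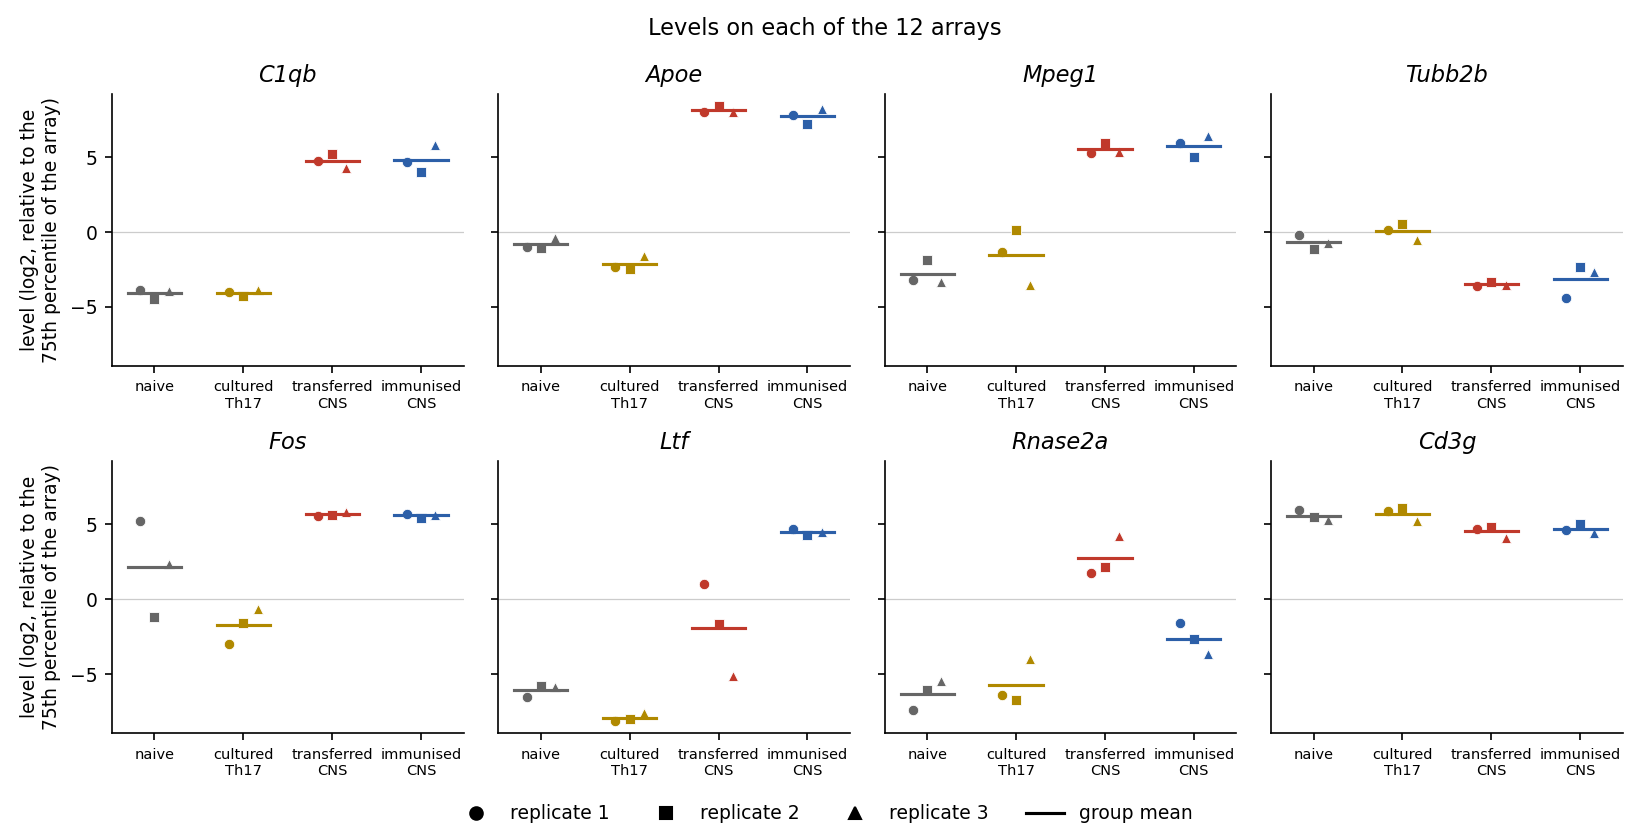
Log2 level of 8 genes on each of the 12 arrays, 1 panel per gene, with groups on the horizontal axis, replicates as symbols and group means as bars. C1qb, Apoe and Mpeg1 are at 4.03 or more on every CNS array and at 0.15 or less on every other array, Tubb2b and Cd3g are lower in the CNS, naive replicate 1 stands apart for Fos, and Ltf and Rnase2a differ between the CNS groups.

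Of the 18 macrophage and monocyte genes, 17 were higher, and the same 17 lay beyond both other groups, against 7.13% of all genes. The median difference over the list was 7.07, against -0.18 over all genes tested. The exception was Itgam, a chain of the integrin CD11b, which was lower in the CNS (-1.19, SE 0.33, adjusted p = 0.0127, limma), with its highest levels on naive arrays (4.40 to 6.52). Csf1r, the receptor for macrophage colony-stimulating factor, was between -0.18 and 0.99 outside the CNS and between 6.18 and 7.24 within it, a difference of 6.38 (SE 0.19). Tyrobp, the signalling adaptor of many myeloid receptors, ranged from -2.55 to 0.73 and from 5.02 to 6.35, a difference of 6.92 (SE 0.30). Lyz2, the lysozyme of macrophages and neutrophils, was 9.11 higher (SE 0.58), and Cd68, a late endosomal protein of macrophages, 5.10 higher (SE 0.32).

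Some macrophage genes were at background in naive cells or on all arrays outside the CNS, so only a lower bound could be given. Adgre1, which encodes the F4/80 antigen, was not well above background on any naive array and was at least 289-fold higher in the CNS. Ms4a7, a membrane protein of macrophages, was at least 411-fold higher by the same measure. Fcgr1, the high-affinity receptor for IgG, was at least 193-fold higher: it was between -7.77 and -5.67 on the non-CNS arrays and between 0.63 and 2.27 on the CNS arrays. Spi1, which encodes the myeloid transcription factor PU.1, was not well above background on any non-CNS array and was at least 20.6-fold higher in the CNS.

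PU.1 binds purine-rich sites in the promoters of many myeloid genes, and 3 promoters from the genes above are shown because each holds its core GAGGAA, on either strand. The windows run from 250 bases before to 50 bases after the gene's start, are taken from RefSeq on GRCm38.p6 and are written on the gene's own strand. Capitals mark the core. The first is C1qb on the minus strand at chr4:136886151-136886450, the second is Fcgr1 on the minus strand at chr3:96293920-96294219, and the third is Trem2, a lipid-sensing receptor of macrophages, on the plus strand at chr17:48346151-48346450.
C1qb: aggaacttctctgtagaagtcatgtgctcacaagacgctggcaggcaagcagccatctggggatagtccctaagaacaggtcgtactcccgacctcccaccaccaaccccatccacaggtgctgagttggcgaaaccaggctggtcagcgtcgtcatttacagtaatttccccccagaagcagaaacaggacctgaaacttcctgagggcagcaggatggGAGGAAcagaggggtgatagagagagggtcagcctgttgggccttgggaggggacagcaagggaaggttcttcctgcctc
Fcgr1: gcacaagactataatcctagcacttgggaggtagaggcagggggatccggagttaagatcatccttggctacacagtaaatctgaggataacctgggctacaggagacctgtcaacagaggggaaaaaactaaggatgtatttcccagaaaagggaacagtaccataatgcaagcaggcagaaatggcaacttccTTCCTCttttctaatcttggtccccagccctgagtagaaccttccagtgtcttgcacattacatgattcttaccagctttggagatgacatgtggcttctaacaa
Trem2: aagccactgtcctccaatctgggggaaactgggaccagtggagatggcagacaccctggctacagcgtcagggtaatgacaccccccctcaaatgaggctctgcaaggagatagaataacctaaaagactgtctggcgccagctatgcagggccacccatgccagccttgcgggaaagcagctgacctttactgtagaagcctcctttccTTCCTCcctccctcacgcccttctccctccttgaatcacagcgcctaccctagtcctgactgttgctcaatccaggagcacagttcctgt
The core begins 30 bases before the start in C1qb, 55 in Fcgr1 and 40 in Trem2, and in both Fcgr1 and Trem2 it stands on the opposite strand. Over the genes that lay above and belong to the myeloid and lysosomal lists, 51 had a promoter in the table, and 25 of them (49.0%) held the core. Of all 11609 genes tested with a promoter, 31.0% held it. Among the markers that lay above, the promoter of Mpeg1 did not hold the core, and neither did window 2 of 3 for Apoe. A match is a description of the sequence only.

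Microglial genes were higher too: 11 of 12 were higher and lay beyond both other groups, with a median of 4.94. P2ry12, a purine receptor of resting microglia, was between -8.32 and -4.09 on the non-CNS arrays and between -0.82 and -0.19 on the CNS arrays, at least 49.4-fold higher. P2ry13, its relative, was at least 43.2-fold higher. Tmem119, a membrane protein of microglia, was 5.44 higher (SE 0.30), and Sall1, a transcription factor of microglia, was at least 4.44-fold higher. Siglech was the exception, at -0.18. The summed level of the list ran from 6.27 to 6.92 outside the CNS and from 6.87 to 7.26 within it, so that naive replicate 3 overlapped the lowest immunised array. Sums weigh bright probes most.

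All 12 complement genes lay above both other groups, with a median of 6.62. C1qc and C1qa, the other chains of C1q, were at least 2169-fold and at least 2096-fold higher. C1qc was between -7.87 and -5.84 outside the CNS and between 4.18 and 6.08 within it. C3, the central component, was 5.02 higher (SE 0.28), with culture arrays (2.26 to 3.26) between the naive arrays (-1.26 to -0.91) and the CNS arrays (4.68 to 6.74). The receptor of the C5a fragment, C5ar1, was at least 69.5-fold higher. Serping1, the C1 inhibitor, had the smallest difference of the list, 1.70.

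Lipid-handling and scavenger genes were higher for 16 of 19 members, of which 14 lay beyond both other groups (median 4.27). Trem2 was between -7.56 and -1.05 on the non-CNS arrays and between 3.81 and 5.38 on the CNS arrays, at least 347-fold higher. Apoc2, the cofactor of lipoprotein lipase, was 9.18 higher (SE 0.35), and Mertk, a receptor for apoptotic cells, at least 117-fold. Gpnmb, a glycoprotein of lipid-laden macrophages, rose by 4.64 (SE 0.39). Abcg1 (0.29), Lipa (0.25) and Npc2 (-0.09) were not called, and Stab1 and Fabp5 were called but overlapped the culture arrays.

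Lysosomal genes were higher for 16 of 17 members, all 16 beyond both other groups, with a smaller median of 2.95. Ctsh, a cathepsin, had the largest difference, 6.99 (SE 0.28). It rose from -2.68 to -2.29 in naive cells and -0.03 to 1.37 in culture to 5.36 to 6.64 in the CNS. Grn, which encodes progranulin, was 4.52 higher (SE 0.26), and Lgmn, the asparaginyl endopeptidase, 4.72 higher (SE 0.32). Gla was at -0.18 and not called.

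MHC class II genes were higher for 7 of 9 members, 6 of them beyond both other groups (median 5.22). H2-Aa, a classical alpha chain, was at -2.72, -3.75 and -3.50 on naive arrays, -1.31, -0.85 and -1.39 on culture arrays, 4.62, 5.50 and 3.61 on transferred arrays and 5.63, 4.72 and 6.46 on immunised arrays. The CNS groups overlapped each other and neither overlapped the rest. H2-Aa was 163-fold higher (7.35, SE 0.37, adjusted p = 2.58e-07, limma), and the invariant chain Cd74 was 66.2-fold higher (6.05, SE 0.25). H2-Ob, the beta chain of the B cell-restricted DO molecule, was lower (-1.29).

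Among 12 Fc and Toll-like receptor genes, 9 were higher and 7 lay beyond both other groups (median 2.83). Fcgr4, a receptor for IgG2, was 7.75 higher (SE 0.37), and Tlr2, a receptor for bacterial lipopeptides, 6.61 higher (SE 0.48). Tlr1 (0.43), Tlr9 (0.07) and Myd88 (-0.08) were not called.

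Chemokine genes were higher for 19 of 20 members, and 18 lay beyond both other groups (median 6.26). Among the monocyte attractants, Ccl2 was at least 885-fold higher, Ccl7 at least 597-fold, Ccl8 at least 562-fold and Ccl12 at least 212-fold. Ccl7 was at -7.40, -8.0 and -7.76 on naive arrays, -6.19, -7.66 and -6.67 on culture arrays, 4.30, 2.31 and 6.41 on transferred arrays and 1.73, 2.07 and 3.98 on immunised arrays. No array outside the CNS held a signal well above background, and transferred replicate 3 was the highest of all. The neutrophil attractants Cxcl1 and Cxcl2 were at least 606-fold and at least 717-fold higher. Ccl5, which T cells make too, was called (3.98, SE 0.63) but overlapped culture replicate 2 at 4.15, and Cxcl11 was not called (-0.14).

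Inflammatory mediators were higher for all 15 members, and 11 lay beyond both other groups (median 3.29). Il1b, the interleukin 1 beta gene, was between -8.06 and -6.28 in naive cells, between -3.18 and 1.83 in culture and between 5.26 and 7.18 in the CNS, at least 614-fold higher. Il6 was at least 55.9-fold higher, and Ptgs2, the inducible cyclooxygenase, at least 131-fold. Tnf was between -1.99 and 2.16 outside the CNS and between 2.39 and 4.37 within it (3.17, SE 0.58, adjusted p = 0.00133, limma). Tgfb1 and Il27 rose by only 0.92 and 0.69.

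Alternative-activation genes were higher for 6 of 7 members, and 3 lay beyond both other groups (5 without culture replicate 3). Arg1, the arginase of alternatively activated macrophages, was at least 699-fold higher, and Chil3, a chitinase-like protein, was 998-fold higher (9.96, SE 0.89). Il4ra was lower (-0.79).

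Iron and haem genes were higher for all 9 members, and all 9 lay beyond both other groups (median 3.94; 5 lay beyond on the T cell core scale). Trf, which encodes transferrin, was 7.51 higher (SE 0.30), and Slc11a1, an endosomal metal transporter of phagocytes, 7.29 higher (SE 0.61). Hmox1, which degrades haem, was 3.94 higher, and the ferritin chains Fth1 and Ftl1 1.0 and 1.12 higher. Matrix and protease genes were higher for 12 of 15 members, but only 4 lay beyond both other groups. Fn1, fibronectin, was 724-fold higher (9.50, SE 0.35), Thbs1, thrombospondin 1, at least 420-fold and Mmp14, a membrane-bound metalloproteinase, at least 40.3-fold.

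**Figure D3:**
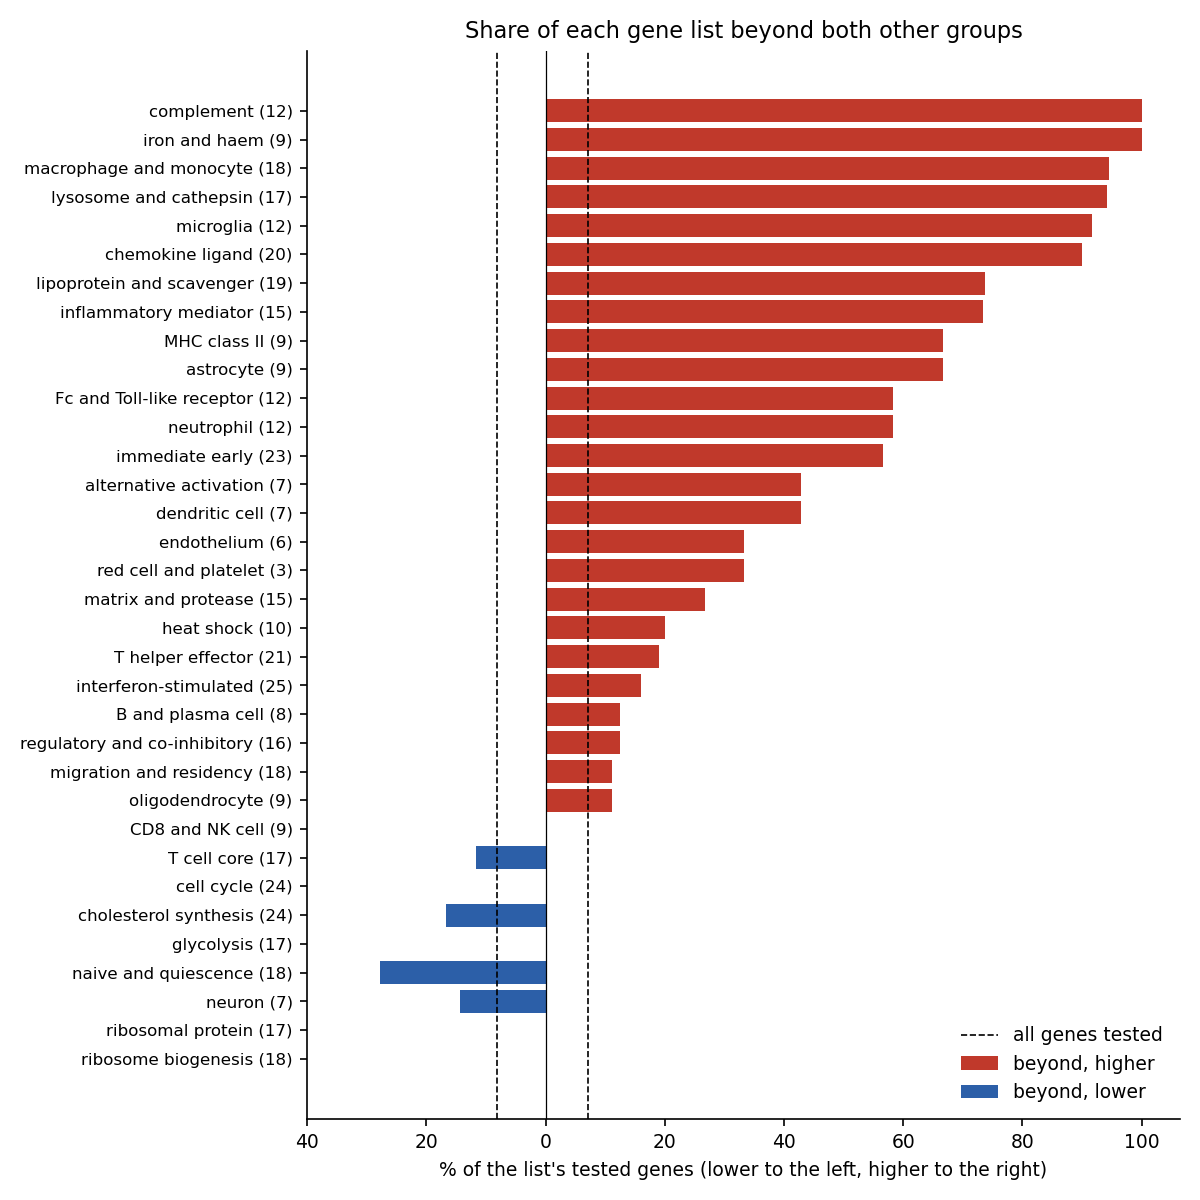
Share of each gene list whose members lie beyond both other groups, in percent of the list's tested genes (number in brackets), higher to the right and lower to the left. Dashed lines mark the shares over all genes tested, 7.13% higher and 8.16% lower. Complement and iron genes reach the full list, and ribosomal, cell cycle and glycolysis genes have no such member.

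Markers of other cell types were mixed. Over all genes tested, 18.3% were called higher and 29.5% lower, and 7.13% lay above both other groups. Dendritic cell genes were higher for 6 of 7 members and 3 lay beyond both other groups: Itgax, which encodes CD11c (at least 54.3-fold), Clec9a, a receptor of cross-presenting dendritic cells (at least 8.07-fold), and Irf8, a transcription factor of the lineage (3.18, SE 0.30). Astrocyte genes were higher for 6 of 9 members, all 6 beyond both other groups, but at low levels. Of the 9, 7 were not well above background on any naive array and 4 on any culture array. A gene dim in both of these groups was tested only because a CNS group had it, so the filter helped to set this count. Gfap, the astrocyte filament protein, was between -7.78 and -5.97 on the non-CNS arrays and between -5.31 and -3.58 on the CNS arrays, at least 2.50-fold higher. S100b, a calcium-binding protein of astrocytes, was at least 14.4-fold higher, whereas the astrocyte water channel Aqp4 (-0.11), Aldh1l1 (-0.22) and Gja1 (-0.56) were not called. Of 13 oligodendrocyte genes listed, 9 were tested. Of these, 3 were called higher, Mag and Mal among them, and Mbp, Cnp and Sox10 lower, a share near the 29.5% of all genes. Mag, a myelin adhesion protein, was the 1 member beyond both other groups (2.94, SE 0.24). Of 6 endothelial genes tested, from 10 listed, Flt1 and Vwf lay beyond both other groups, and Pecam1 was lower (-1.0).

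Of 8 B and plasma cell genes, 5 were called lower and 1 higher, against 29.5% and 18.3% of all genes (median -1.20). On the T cell core scale 3 were lower, against 7.57% of all genes. Jchain, the joining chain of secreted antibodies, was at 4.26, 1.61 and 4.47 on naive arrays, -1.50, -1.65 and -4.57 on culture arrays, -7.71, -7.39 and -6.17 on transferred arrays and -1.24, 0.77 and -3.87 on immunised arrays. It was not well above background on any transferred array, and the immunised arrays overlapped the culture arrays, so it did not lie beyond both other groups. Ms4a1, which encodes CD20, was likewise not above background in the transferred group and between -3.59 and -3.26 in the immunised group. Blnk, an adaptor shared by B cells and macrophages, was the higher member (3.76, SE 0.37). Of 9 CD8 and NK cell genes, 5 were higher, 2 were lower and none lay beyond both other groups, although 3 did without transferred replicate 3. The higher genes included the NK receptor genes Klrb1c (3.81) and Klrk1 (2.73), and Cd8b1, a chain of the CD8 coreceptor, was lower (-1.85, SE 0.23).

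**Figure D4:**
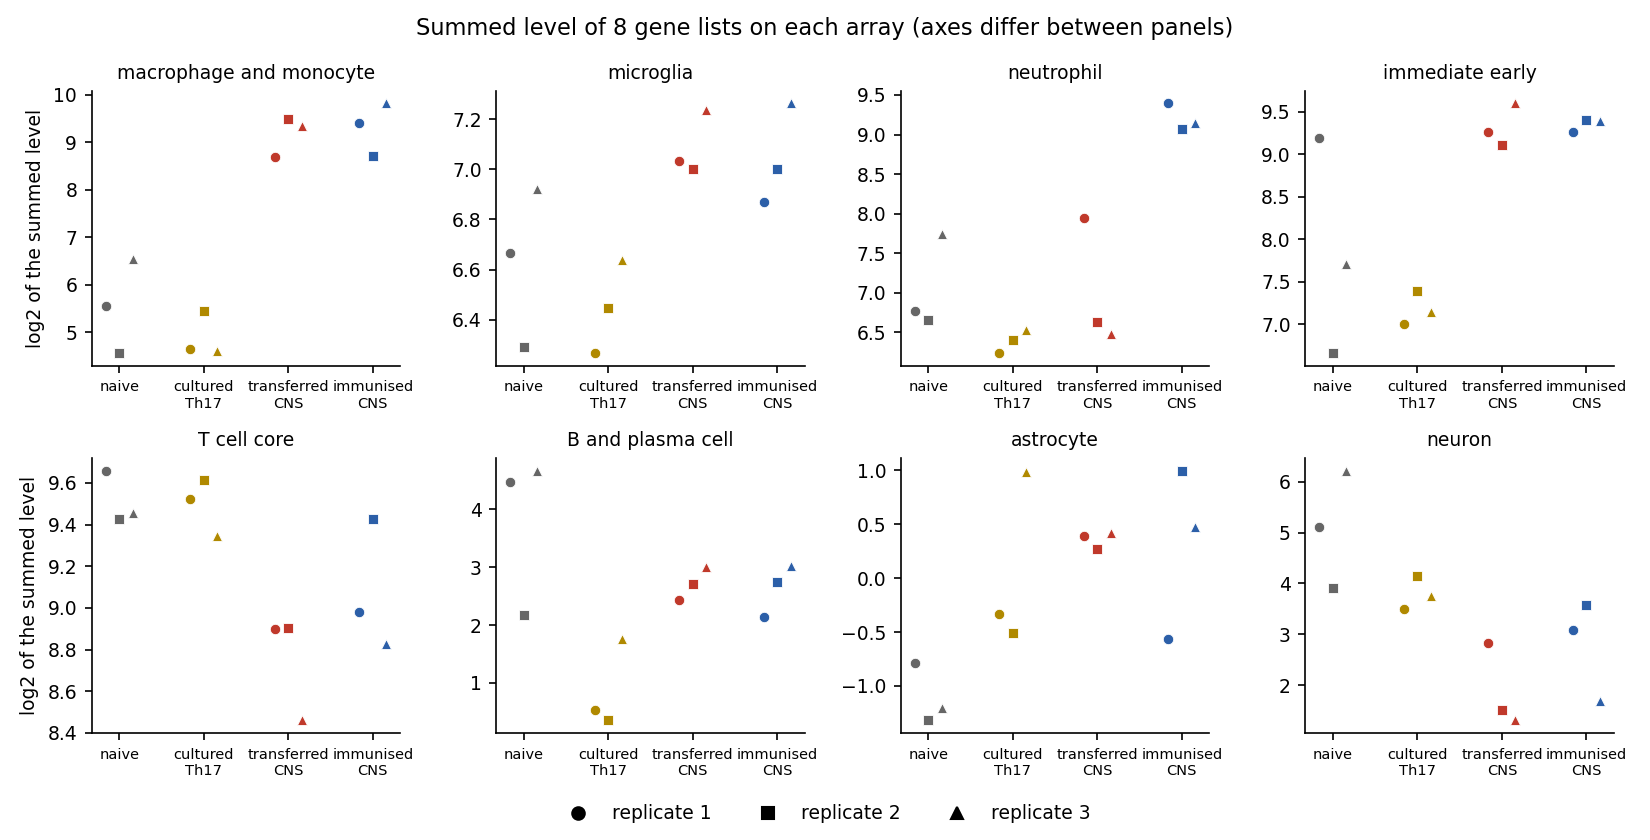
Log2 of the summed level of 8 gene lists on each array, by group (horizontal axis), with replicates as symbols; the vertical axes differ. Macrophage sums run from 4.56 to 6.55 outside the CNS and from 8.69 to 9.82 within it, neutrophil sums are high in the immunised group (9.07 to 9.39) and T cell core sums run from 8.46 to 8.90 on transferred, from 8.83 to 9.43 on immunised and from 9.34 to 9.66 on the other arrays.

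Immediate early genes are transcribed within minutes of a stimulus and encode short-lived transcription factors and feedback regulators. Of 23 tested, 21 were higher in the CNS and none lower (median 2.84). Of these, 13 lay beyond both other groups: Fos, Fosb, Atf3, Egr2, Klf4, Nr4a1, Nr4a2, Nr4a3, Zfp36, Dusp1, Ier3, Btg2 and Gadd45b. Without naive replicate 1 that number was 20. Fos, a subunit of the AP-1 factor, was at 5.21, -1.16 and 2.38 on naive arrays, -2.96, -1.59 and -0.68 on culture arrays, 5.55, 5.63 and 5.81 on transferred arrays and 5.71, 5.45 and 5.64 on immunised arrays. The CNS arrays were nearly identical, and naive replicate 1 reached almost to them while the other naive arrays lay far lower. The difference was 5.43 (SE 0.86, adjusted p = 0.000539, limma).

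Nr4a1, a nuclear receptor that T cell receptor signals induce, was at 5.06, 1.72 and 3.05 in naive cells, 1.92, 2.80 and 0.87 in culture, 6.05, 6.18 and 6.52 in transferred cells and 6.78, 6.99 and 6.82 in immunised mice. Naive replicate 1 was again the highest of the non-CNS arrays, and no array overlapped the CNS. Nr4a1 was 3.99 higher (SE 0.50, adjusted p = 0.000121, limma). Egr2, another factor downstream of the receptor, ranged from -1.17 to 0.40 outside the CNS and from 3.34 to 4.44 within it (3.91, SE 0.29), and naive replicate 1 did not stand apart for it. Atf3, a stress-induced factor, was 7.79 higher (SE 0.59), and Jun (0.77) and Jund (0.29) were not called. The summed level ran from 7.01 to 7.39 in culture, from 9.10 to 9.60 in transferred cells and from 9.26 to 9.40 in immunised mice, with naive replicate 1 at 9.20. Handling time and temperature of the cells are not given in the labels, and their part in these values was not tested.

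Serum response factor binds CArG boxes in immediate early promoters. Zfp36, which encodes the mRNA-destabilising protein tristetraprolin, was between -1.84 and 1.62 on the non-CNS arrays and between 2.73 and 3.62 on the CNS arrays (3.50, SE 0.30). Its promoter is shown because it holds such a box, in capitals, 58 bases before the start (RefSeq, GRCm38.p6, minus strand, chr7:28379179-28379478).
Zfp36: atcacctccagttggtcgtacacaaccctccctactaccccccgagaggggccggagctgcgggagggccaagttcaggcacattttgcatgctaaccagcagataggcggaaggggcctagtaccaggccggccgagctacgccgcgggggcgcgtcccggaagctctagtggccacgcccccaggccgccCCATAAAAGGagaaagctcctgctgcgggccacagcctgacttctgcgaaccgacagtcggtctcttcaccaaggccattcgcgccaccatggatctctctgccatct
The box reads as a match on both strands. A CArG box stood in the promoters of 2 of the 13 immediate early genes above (15.4%) and of 1.69% of all genes tested with a promoter. The cAMP response element TGACGTCA, searched on both strands, stood in 2 of the 13 and in 3.35% of all.

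Heat shock genes, which handling stress and fever induce, did not move as a group (median 0.01). Of 10, 3 were higher and 1 was lower, against 18.3% and 29.5% of all genes. Hspa1a, the inducible chaperone HSP70, lay beyond both other groups (5.22, SE 0.66), as did its cochaperone Bag3 (1.38, SE 0.17), while Hspa8, Hspd1 and Hsp90aa1 were within 0.01 of no difference. Interferon-stimulated genes were higher for 13 of 25 members and lower for 1 (median 1.31). Of these, 4 lay beyond both other groups, against 7.13% of all genes: Rsad2, Oas1a, Mx1 and Bst2. That count was 7 without naive replicate 2, 2 with normexp background correction and 1 with median scaling, and Mx1 lost its call in 5 settings (adjusted p of up to 0.059, limma).

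Genes of T helper effector function were higher for 13 of 21 members, against 18.3% of all genes (median 1.64). Of these, 4 lay beyond both other groups, against 7.13% of all genes. Csf2, which encodes the cytokine GM-CSF through which T cells activate myeloid cells in EAE, was at -7.14, -7.75 and -6.57 on naive arrays, -2.32, -1.42 and -4.02 on culture arrays, 0.60, 0.76 and 2.76 on transferred arrays and 1.92, 1.64 and 2.0 on immunised arrays. It did not rise above background in naive cells, was intermediate in culture and highest in the CNS, where it was at least 53.0-fold higher. Il2, the T cell growth factor, was between -7.95 and -3.84 outside the CNS and between -1.16 and 0.95 within it (5.47, SE 0.39, adjusted p = 2.4e-06, limma). Tnfsf11, the RANK ligand, was 3.51 higher (SE 0.24), and Fasl, the Fas ligand, 3.24 higher (SE 0.25).

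The signature cytokine of the Th17 subset did not lie beyond both other groups. Il17a was at -4.96, -6.27 and -5.89 on naive arrays, 5.36, 5.45 and 2.30 on culture arrays, 1.82, 1.74 and 1.56 on transferred arrays and 2.87, 4.69 and 2.58 on immunised arrays. Culture replicates 1 and 2 were above every CNS array, and the transferred arrays were below every culture array. Il17f (-1.43), Il22 (-1.04) and Il23r (-1.29) were not called. Ifng was called higher (4.31, SE 1.14, adjusted p = 0.0101, limma), but culture replicate 2, at 4.16, overlapped the transferred arrays at 3.34 to 4.71. Across these arrays 17 of 18 macrophage genes were higher in the CNS as well, and the part of other cells in the differences of cytokine genes was not tested.

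Regulatory and co-inhibitory genes were higher for 12 of 16 members, against 18.3% of all genes, and 2 lay beyond both other groups (median 1.68), a share near the 7.13% of all genes. They were Entpd1 and Nt5e, the ectoenzymes CD39 and CD73, which turn extracellular ATP into adenosine. Entpd1 was at least 21.1-fold higher, and Nt5e was 2.73 higher (SE 0.37), from -1.70 to 0.64 outside the CNS to 1.37 to 2.74 within it. The inhibitory receptors Havcr2 (4.05) and Lag3 (2.67) were called higher but the culture arrays overlapped the CNS arrays. Migration and residency genes were higher for 11 of 18 and lower for 3, and 2 lay beyond both other groups (4 without culture replicate 3, and 4 without transferred replicate 3). Rgs2, a regulator of G protein signals, was 3.61 higher (SE 0.34) and Itgb1, the integrin beta 1 chain, 2.40 higher (SE 0.21).

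Tubb2b encodes a beta-tubulin known from neurons and had the largest gap among the genes below that were measured on all 12 arrays (probe at chr13:34219092-34219151). It was at -0.18, -1.11 and -0.74 on naive arrays, 0.13, 0.56 and -0.57 on culture arrays, -3.62, -3.34 and -3.52 on transferred arrays and -4.37, -2.35 and -2.67 on immunised arrays. The T cells outside the CNS thus held more of this transcript than the cells from nervous tissue, with no overlap. Tubb2b was 7.97-fold lower (-2.99, SE 0.34, adjusted p = 6.6e-05, limma) and stayed beyond both other groups on the T cell core scale (-2.45). Other neuronal genes gave no common direction: Snap25 (-2.13) and Uchl1 (-1.30) were lower, Stmn2 was higher (2.27) and 3 of the 7 tested were not called.

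Further genes with large gaps below were Klhl42, a substrate adaptor of a ubiquitin ligase (-2.90, SE 0.27), Ldhd, a mitochondrial D-lactate dehydrogenase (-2.61, SE 0.24), and Rsrp1, an arginine- and serine-rich protein (-2.39, SE 0.15). Rsrp1 was between 5.02 and 6.01 outside the CNS and between 2.95 and 3.41 within it, a narrow range on each side. Gprasp2 (-2.65), Zfp286 (-2.14) and Gfod2 (-2.71) followed, and all 6 genes stayed beyond both other groups on the T cell core scale. Ccnjl and Nhsl1 were not well above background on any CNS array and were at least 5.09-fold and at least 6.57-fold lower. DQ907162 is described in the files as a copy of a chromosome Y Sycp3-like gene, so its probe may read near-identical copies (-2.56, SE 0.55). It did not follow the Y-linked gene Ddx3y across arrays.

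Genes of naive and quiescent T cells were lower for 11 of 18 members, against 29.5% of all genes, and 5 lay below both other groups (median -1.19). Satb1, a chromatin organiser of T cells, was at 4.89, 5.01 and 5.01 on naive arrays, 5.41, 5.12 and 5.51 on culture arrays, 3.95, 3.20 and 3.08 on transferred arrays and 2.77, 3.43 and 2.45 on immunised arrays. Naive and cultured cells were close together, and both CNS groups lay below them. Satb1 was 4.04-fold lower (-2.01, SE 0.20, adjusted p = 2.43e-05, limma), but on the T cell core scale it no longer lay beyond both other groups (-1.47). Bach2, a repressor of effector differentiation (-2.46, SE 0.22), Foxo1, a factor of quiescence (-1.40, SE 0.18), and Lef1, a Wnt pathway factor (-1.87, SE 0.19), did so on both scales. Klf2, which drives exit from tissues, was higher (1.65), with naive arrays (5.21 to 6.91) overlapping the CNS arrays and culture arrays (-0.38 to 1.70) far below.

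T cell core genes were lower for 10 of 17 members, against 29.5% of all genes, and higher for none (median -0.53). Of these, 2 lay below both other groups, near the 8.16% of all genes: Cd3g (-1.04, SE 0.21) and Cd3d (-0.90, SE 0.16). Without immunised replicate 2, 5 did, but 0 did with quantile normalization, with normexp background correction or in the series matrix values. Cd3d lost its call in 1 setting (adjusted p = 0.068, limma). On the T cell core scale 0 did, but that scale subtracts the mean of these same genes. It therefore cannot show whether they are lower as a group. Cd3g, a signalling chain of the T cell receptor complex, was at 5.95, 5.52 and 5.30 on naive arrays, 5.86, 6.11 and 5.20 on culture arrays, 4.69, 4.81 and 4.12 on transferred arrays and 4.65, 5.0 and 4.41 on immunised arrays. The nearest arrays, culture replicate 3 and immunised replicate 2, lay only a little apart. Cd4 was 0.40 lower (SE 0.14, adjusted p = 0.0309, limma) and overlapped, from 4.39 to 5.02 outside the CNS and from 3.94 to 4.72 within it. Its call was lost in several settings, with an adjusted p of up to 0.44 (limma). On the T cell core scale, which Cd4 itself helps to set, its sign turned (0.14). The macrophage list moved the other way on the same arrays, and its part in the lower T cell levels was not tested.

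Cholesterol synthesis genes were lower for 18 of 24 members, against 29.5% of all genes (median -1.12). Of these, 4 lay below both other groups, against 8.16% of all genes, among them Tm7sf2, Acat2 and Dhcr7. Without naive replicate 2, 10 did; on the T cell core scale 12 were lower and none lay beyond. Acat2, which makes acetoacetyl-CoA at the start of the pathway, was between -2.24 and -1.64 in naive cells, between -1.28 and -0.76 in culture and between -2.97 and -2.63 in the CNS (-1.32, SE 0.14). Cultured cells were the highest for most of the list, with 23 of 24 members called higher in culture than in naive cells, against 19.2% of all genes. The summed level of the CNS arrays, 5.21 to 5.78, almost matched that of the naive arrays, 5.20 to 5.77, and lay below that of the culture arrays, 7.11 to 7.33.

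No gene of glycolysis or the cell cycle lay beyond both other groups. The summed level of the glycolysis genes was 8.79 to 9.10 on naive arrays, 10.45 to 11.42 on culture arrays, 9.68 to 10.16 on transferred arrays and 9.87 to 10.24 on immunised arrays. That of the cell cycle genes was 6.13 to 6.21, 7.13 to 7.84, 7.04 to 7.40 and 6.55 to 6.99 on the same groups in turn. Both CNS groups lay above naive cells on both lists, and below culture for glycolysis, while for the cell cycle transferred cells overlapped culture and immunised cells lay below it. Hk2, a hexokinase, was between -5.71 and -4.68 in naive cells, between 1.96 and 2.51 in culture and between 1.53 and 2.67 in the CNS. Mki67, a marker of dividing cells, was between -0.17 and 1.58 in naive cells and between 3.20 and 4.31 on all other arrays. In the comparison of CNS with non-CNS arrays, 7 of 17 glycolysis genes and 8 of 24 cell cycle genes were higher (medians 0.32 and 0.39), against 18.3% of all genes, and on the T cell core scale 12 and 18. Ribosomal protein genes had a median of -0.32 and ribosome biogenesis genes of -0.22. Of these, 2 of 17 and 1 of 18 members were lower, against 29.5% of all genes. Both medians turned positive on the T cell core scale (0.23 and 0.33), as did that of all genes (0.36). That scale moves the difference of every gene by the same amount. Without culture replicate 2, 8 ribosomal protein and 5 biogenesis genes were lower, where 5604 of all 18735 genes tested were lower.

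The CNS groups differed in few genes, and about as seldom in the genes above as in all genes. Of the 1329 above, 48 (3.61%) differed between transferred and immunised cells, against 3.19% of all genes, and of the 1521 below, 16 (1.05%) did. Culture and naive cells differed in 442 of the genes above (33.3%) and in 396 of those below (26.0%), against 40.5% of all genes. Of the genes above, 352 were higher in culture and 90 in naive cells, and of those below, 89 and 307 (19.2% and 21.3% of all genes). The rule for genes above and below uses the arrays of all 4 groups, so the choice itself shapes these shares.

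Neutrophil genes were among the 594 that differed between the CNS groups. Of 12 tested, 10 were higher in the CNS and 7 lay beyond both other groups (median 6.11), and 7 were higher in immunised than in transferred cells, against 1.82% of all genes. The summed level of the list ran from 6.48 to 7.95 on transferred arrays and from 6.66 to 7.74 on naive arrays, so these groups overlapped. On immunised arrays it ran from 9.07 to 9.39. Ltf, the granule protein lactoferrin, was at -6.53, -5.81 and -5.85 on naive arrays, -8.10, -7.98 and -7.62 on culture arrays, 0.99, -1.63 and -5.10 on transferred arrays and 4.67, 4.31 and 4.48 on immunised arrays. The immunised arrays were close together, and the transferred arrays were spread widely, with replicate 1 highest and replicate 3 near the background. Ltf was at least 130-fold higher in the CNS and 6.40 lower in transferred than in immunised cells (SE 1.11, adjusted p = 0.0138, limma). S100a8, a subunit of calprotectin, had the same spread, with 5.35, 3.32 and 0.69 on transferred arrays and 7.0 to 7.39 on immunised arrays, against 0.56 or less on the others. Retnlg, a resistin-like protein of neutrophils, was at least 294-fold higher in the CNS.

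Another set was higher in the transferred group, a direction called in 1.37% of all genes. Rnase2a, an eosinophil-associated ribonuclease described in the files as Ear11 (probe at chr14:51875064-51875123), was at -7.36, -6.03 and -5.48 on naive arrays, -6.42, -6.71 and -3.97 on culture arrays, 1.75, 2.17 and 4.25 on transferred arrays and -1.61, -2.68 and -3.64 on immunised arrays. All transferred arrays were above all immunised arrays, with replicate 3 highest, and culture replicate 3 came nearest to the CNS. Rnase2a was 5.37 higher in transferred than in immunised cells (SE 0.88, adjusted p = 0.01, limma). Ear1, Ear2, Ear10 and Ear12 differed by 4.39 to 4.65 in the same direction, but these are near-identical paralogs on chromosome 14 and their probes may read one another's transcripts. Mrc1, the mannose receptor of macrophages, was between 3.48 and 5.82 in transferred cells and between -0.80 and 0.52 in immunised mice (4.57, SE 0.68, adjusted p = 0.0059, limma). Chil4, a chitinase-like protein, was 3.21 higher and Cdh1, E-cadherin, 2.88 higher in the transferred group.

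Probes for antigen receptor genes stood apart from the lists. Of 88 immunoglobulin probes, 82 were called lower in the CNS and none higher (median -2.82; 29.5% of all genes were lower), and 4 (4.55%, against 8.16% of all genes) lay below both other groups on either scale. All 88 were well above background on all 3 naive arrays, and some of them passed the filter for testing only through that group. The filter itself thus helped to set the direction of these counts. Naive cells were the highest for most of these probes. The one for the heavy constant mu segment, ENSMUST00000103426, had means of 4.50 in naive, 0.76 in culture, -1.98 in transferred and 0.99 in immunised cells. The largest of the 4 differences, with naive and culture arrays overlapping, was that of the probe for ENSMUST00000103310, an immunoglobulin kappa variable segment, at 1.10, -2.18 and 0.83 on naive arrays, 0.07, 0.22 and -1.84 on culture arrays, -7.97, -7.82 and -8.10 on transferred arrays and -7.95, -6.36 and -7.69 on immunised arrays. No CNS array was well above background, and the transcript was at least 41.6-fold lower there. Of 66 T cell receptor probes, 35 were higher in immunised than in transferred cells, against 1.82% of all genes, and 7 the reverse, against 1.37%. In the comparison of CNS with non-CNS arrays, 17 were higher and 18 lower, against 18.3% and 29.5% of all genes. Below both other groups lay 3 (4.55%, against 8.16% of all genes), and 0 on the T cell core scale. GU599378, described as a T cell receptor beta chain clone, was between 8.05 and 8.49 on the naive and culture arrays, between 7.47 and 7.79 on the transferred arrays and between 0.92 and 1.97 on the immunised arrays. The receptor transgene was shared by the first 3 groups, and this probe lay 6.18 higher in transferred than in immunised cells (SE 0.24, adjusted p = 1.58e-06, limma). Some variable segments are near-identical copies, so single probes of either family may read more than 1 segment.

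Sex-linked transcripts, which the labels do not bear on, divided the arrays in another way. Eif2s3y, a Y-linked initiation factor gene, was at 3.11, -7.74 and -7.52 on naive arrays, 2.74, 2.97 and 3.34 on culture arrays, 2.50, 1.87 and 1.38 on transferred arrays and -7.43, -7.48 and -7.21 on immunised arrays. Xist, the RNA of the inactive X chromosome, was at -7.39, 0.25 and 0.25, at -5.32, -4.91 and -7.75, at -7.81, -1.68 and -1.51 and at -0.62, -0.52 and -0.85 on the same arrays in turn. Naive replicate 1 and transferred replicate 1 had the Y-linked transcript without Xist, the other naive and all immunised arrays had Xist without the Y-linked transcript, and transferred replicates 2 and 3 held both. Culture replicates 1 and 2 had the Y-linked transcript with Xist only just above background, and culture replicate 3 had the Y-linked transcript alone. Neither gene was called between CNS and non-CNS arrays. Ddx3y was well above background on the same arrays as Eif2s3y. The part of the animals' sex in the differences above was not tested.

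**Figure D5:**
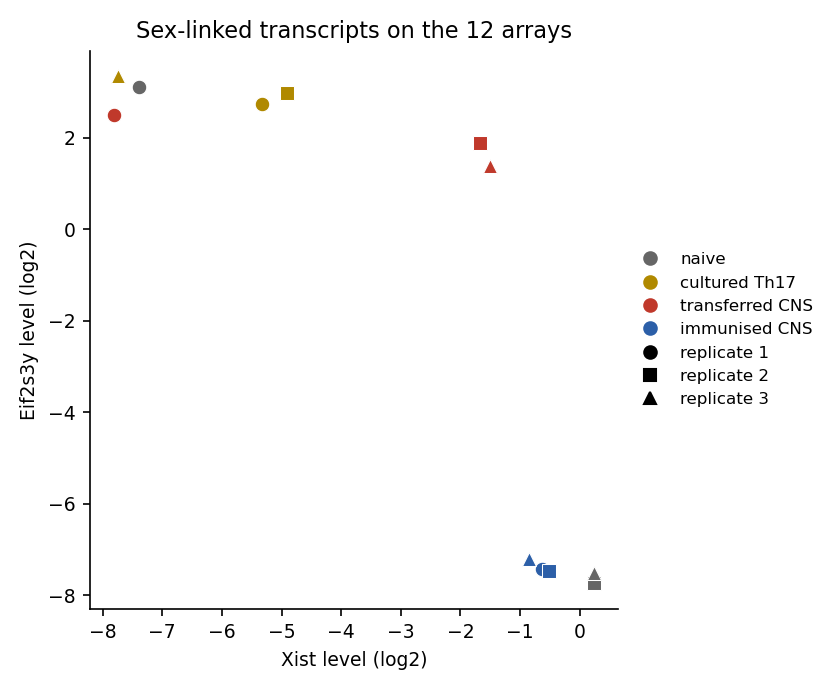
Log2 level of Eif2s3y (vertical axis) against that of Xist (horizontal axis) on the 12 arrays, with groups as colours and replicates as symbols. Transferred replicates 2 and 3 lie at Eif2s3y levels of 1.87 and 1.38 together with Xist levels of -1.68 and -1.51, apart from both other clusters.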

How the data were processed

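RNA from 12 samples was hybridised to single-colour Agilent arrays. The deposited intensity values were made by the authors with Agilent Feature Extraction 10.7.3.1 (protocol GE1_107_Sep09), with background subtraction and no normalization between arrays, per the file headers. Probe positions follow mm9, per the file headers. Control spots and 120 to 180 spots marked as outliers per array were left out, which left 39405 probes. Levels were log2 processed signals minus the 75th percentile of the array's non-control probes. Probes were named by RefSeq accession (27241), symbol (3574) or synonym (564), and 8050 kept the file's name. A gene was represented by its brightest probe and tested if all 3 arrays of some group had it well above background, which left 18631 genes.

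All arrays entered 1 limma 3.58.1 model in R 4.3.3 with 4 group means (8 residual degrees of freedom, 2.46 prior). Tests were two-sided, with Benjamini-Hochberg adjustment over all genes tested. A fold bound ("at least") sets the dim group at the higher of its own signal and the lowest signal well above background. Summed list levels are the log2 of summed linear levels. On simulated data a change of 1 (log2) was called in 44.8% of genes, a change of 2 in 81.8%, and unchanged genes in 0.0271%.

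Each of 3 slides held 1 array of each group, under the replicate number. Arrays with the same number did not deviate together (4 of 18 pairs correlated above 0.1), so the number was not used as a pairing. Members, the 34 lists and the alternatives were chosen with earlier results of these data known, and the T cell core scale was added after the data were seen. Named genes were the 4 given markers, the largest gaps and bounds on each side, up to 5 members per list, T cell core genes, the genes above that differed most between the CNS groups and genes a result turned on, with a few of these left unreported here. Promoters and figures were handled with Python 3.11.15 (pandas 2.3.3, numpy 2.4.6, matplotlib 3.10.9), and files were read with the R package data.table in its version 1.17.8. The deposited series matrix, whose normalization is not given in the sources used here, correlated at 0.998 or more with its own array and served as an alternative.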

Additional observations from a re-analysis of the deposited data

Results flagged for a closer look

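Among the named genes, 18 differed between transferred and immunised cells in the limma test, adjusted over all genes tested, and the values here are transferred minus immunised on the log2 scale. The neutrophil and granule genes were lower in transferred cells: Ltf by -6.40, Ngp by -6.14, Camp by -5.58, Lcn2 by -5.03, Cd177 by -4.15 and S100a8 by -4.04. On the transferred arrays Ngp was at 1.76, -1.77 and -6.09 and Camp at 3.01, -0.31 and -3.03, so replicate 1 was the highest for both. Hdc, which makes histamine, differed by -3.93 and the unnamed transcript D13Ertd608e by -4.57.

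Higher in transferred cells were Rnase2a (5.37), Ear10 (4.65), Ear2 (4.64), Ear1 (4.44), Ear12 (4.39), Mrc1 (4.57), Chil4 (3.21) and Cdh1 (2.88). Bach2, which lay below both other groups in each CNS group, was 1.68 higher in transferred than in immunised cells. GU599378, the T cell receptor beta chain clone, differed by 6.18.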

How the results depend on the processing

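The counts of genes called higher (3405), called lower (5494), above both other groups (1329) and below both (1521) moved by over 1.5 times in few settings. With only genes detected on all 12 arrays, 2256 were higher and 719 lay above. With 2 groups of 6 in place of 4 groups, 2219 were higher and 3226 lower. At an adjusted p under 0.01, 3468 were lower. On the T cell core scale, added after the data were seen, 6282 were higher, 1411 lower and 185 below both, of which 162 were among the 1521; 1135 of the 1329 genes above were shared. Asking only that group means lie beyond gave 2617 above and 4232 below, asking that all 4 pairs of groups be called gave 823 below, and asking for a gap of at least 1 gave 348 below. Leaving out each array in turn gave 3037 to 3628 higher, 4474 to 5838 lower, 1333 to 1533 above and 1505 to 2120 below. With the replicate number, which is also the slide, as a block, 3359 were higher, 5337 lower, 1326 above and 1512 below. On the T cell core scale Gnl3 (0.073), Nop56 (0.11), Rps19 (0.016), Rplp1 (0.017), Rpl5 (0.063), Cd4 (0.14) and Thy1 (0.094) turned positive. Cd4 and Thy1 are among the genes that set that scale. Of 162 named genes 160 were called, and 143 of these kept call and direction in every setting that tested them. Genes dim in some group were not tested where detection on all 12 arrays was required. Genes dim outside the CNS have bounds only, set by the background of the arrays.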

Other observations

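Genes named as zinc finger proteins (Zfp, Zkscan, Zscan, Zbtb, Zik or Zim symbols) were a group chosen after the values were seen. Of 393 tested, 255 (64.9%) were called lower in the CNS, against 29.5% of all genes, and 27 were higher. All CNS arrays lay below all others for 124 of them (31.6%), against 8.16% of all genes, and the median difference was -0.72, against -0.18. On the T cell core scale the median was -0.18, against 0.36 over all genes. That scale moves the difference of every gene by the same amount, so the distance between these medians could not change. There 99 (25.2%) were called lower, against 7.57% of all genes, and 23 (5.85%) lay below both other groups, against 0.993%.

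Promoters of the genes above held the AP-1 motif TGANTCA (both strands) in 9.67% of 1230 windows, those of the genes below in 4.12% of 1335, and all windows of genes tested in 5.73% of 14652. The core of the interferon-stimulated response element stood in 5.28%, 2.17% and 3.32% of the same windows. These are shares of sequences, and neither was tested.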
